A study of Mus musculus with 17 samples.

Results

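The Rab GTPases are small proteins of the Ras superfamily that mark membranes, and their mRNA was followed here in sorted myeloid cells of mouse brain. The members are the genes whose symbol is Rab followed by a number and at most a letter and a further digit, which takes in 56 of the 13501 gene symbols in the deposited table. The choice used the symbol alone and no measured value.

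Bulk RNA was sequenced from living CD45+CD11b+ brain cells of 5 groups. The first group held circulation-derived myeloid cells of Trem2 knockout donors (4 libraries) and the next held those of Trem2 wild-type donors (4 libraries). Both came from 5xFAD hosts that were themselves Trem2 knockout and had received bone marrow together with PLX5622, a CSF1R inhibitor that depletes microglia. They are called donor cells below. The other groups were untreated microglia: 3 libraries of Trem2 knockout 5xFAD mice, 3 of Trem2 wild-type 5xFAD mice and 3 of wild-type mice without 5xFAD, called normal. 5xFAD mice carry mutant human transgenes, APP among them, under the neuronal Thy1 promoter and build up amyloid. Not given in the sources used here were age, sex, any pooling of animals and whether replicates are separate animals. The p-values therefore cover only the spread between these libraries, which may be technical. The cell origin and the treatment changed together, and wild-type donor cells sat in a knockout host while wild-type microglia did not.

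A Rab protein switches between a soluble form bound to GDP and a form bound to GTP that sits on a membrane and recruits effectors such as tethers, motors and kinases. Exchange factors turn a Rab on at its membrane and GTPase-activating proteins turn it off, and a prenyl group added at the tail holds it in the bilayer. In phagocytes such as microglia, Rab proteins order the steps by which a phagosome fuses with endosomes and lysosomes, and others steer recycling and the release of granules and cytokines.

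Libraries held 16044078 to 30606394 reads (median 19254498) and are named S20 to S36 after the column names. Trem2 followed the labels, with 3962 to 5965 normalized counts in the knockout libraries against 31205 to 53908 in all others. Summed levels of 10 microglial markers ran from 605059 to 752268 in donor cells and from 881341 to 1285274 in microglia, and those of 10 markers of brain macrophages of hematopoietic origin from 108855 to 137332 and from 21616 to 29558. What any host microglia left among the sorted donor cells added to these levels was not tested. Knockout microglia held more RNA of 11 neutrophil markers (52657 to 132567) than wild-type microglia (15083 to 17766). They also held more of 10 monocyte markers (9129 to 21084 against 2906 to 3118). A pair of libraries stood closest in 3 groups, at a chi-square per degree of freedom of 6.11 for S22 with S23, 9.61 for S25 with S27 and 4.92 for S30 with S31, above the 1 that sampling noise alone gives. S25, S27 and S34 lost, and S30 and S31 gained, signal with rising transcript GC content (slopes of −0.46, −0.36, −0.65, 0.38 and 0.31 log2 units per 10% GC). In bulk samples, fewer cells of a type and less RNA per cell cannot be told apart.

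The promoters below belong to the members that differed between donor cells and microglia in both Trem2 genotypes and that have an entry among RefSeq promoters (GRCm38.p6, 250 bases before to 50 bases after the start). An entry was found for 45 of the 56 members, which gave 57 promoters, and Rab7b and Rab4a have none. Each was searched on both strands for the E-box CACGTG, the M-box TCATGTG, the AP-1 element TGANTCA and the PU.1 element GAGGAAGT, and matches stand in capitals. Rab32 lies at chr10:10558158-10558457 on the minus strand, with the PU.1 element 43 bases before the start. Rab20 lies at chr8:11478591-11478890 on the minus strand, with the E-box 46 bases before the start. Rab34 lies at chr11:78188177-78188476 on the plus strand, where the AP-1 element 58 bases before the start overlaps the M-box 54 bases before it. The upstream promoter of Rab27a at chr9:73044560-73044859 (plus strand) and that of Rab39 at chr9:53706183-53706482 (minus strand) hold none of these letters in this window. The second promoter entry of Rab27a, not shown, holds the E-box 246 bases before its start, and that of Rab34, not shown, holds none of these letters.
Rab32: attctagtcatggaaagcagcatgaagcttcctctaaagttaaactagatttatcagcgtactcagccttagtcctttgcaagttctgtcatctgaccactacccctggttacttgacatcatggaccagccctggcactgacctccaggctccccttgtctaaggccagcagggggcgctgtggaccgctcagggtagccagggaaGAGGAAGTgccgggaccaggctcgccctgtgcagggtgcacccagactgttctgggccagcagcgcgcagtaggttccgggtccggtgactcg
Rab20: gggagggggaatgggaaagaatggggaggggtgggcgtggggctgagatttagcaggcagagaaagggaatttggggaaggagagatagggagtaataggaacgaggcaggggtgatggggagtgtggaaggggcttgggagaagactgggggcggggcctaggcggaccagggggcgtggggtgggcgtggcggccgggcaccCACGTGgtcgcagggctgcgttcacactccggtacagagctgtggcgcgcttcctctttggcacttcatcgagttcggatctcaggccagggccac
Rab34: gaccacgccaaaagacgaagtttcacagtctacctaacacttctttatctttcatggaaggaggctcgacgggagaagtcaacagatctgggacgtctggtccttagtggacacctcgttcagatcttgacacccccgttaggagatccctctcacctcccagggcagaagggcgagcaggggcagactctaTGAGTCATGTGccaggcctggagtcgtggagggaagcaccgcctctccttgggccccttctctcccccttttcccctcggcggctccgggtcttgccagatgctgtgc
Rab27a: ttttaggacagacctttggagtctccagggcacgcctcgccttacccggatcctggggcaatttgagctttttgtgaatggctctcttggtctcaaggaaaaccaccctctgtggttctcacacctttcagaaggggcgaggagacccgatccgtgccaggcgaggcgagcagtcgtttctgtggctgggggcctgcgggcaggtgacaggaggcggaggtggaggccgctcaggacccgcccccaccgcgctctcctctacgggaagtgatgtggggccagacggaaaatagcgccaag
Rab39: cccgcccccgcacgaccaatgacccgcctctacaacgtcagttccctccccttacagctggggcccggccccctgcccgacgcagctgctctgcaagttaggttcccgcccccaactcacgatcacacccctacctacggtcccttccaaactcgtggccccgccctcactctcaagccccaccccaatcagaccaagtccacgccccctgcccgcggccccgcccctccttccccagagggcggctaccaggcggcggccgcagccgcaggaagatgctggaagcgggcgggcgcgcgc

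Among all 32851 promoter entries of this length, 7.15% held the E-box, 3.77% the M-box, 7.81% the AP-1 element and 3.2% the PU.1 element. Among the 57 Rab promoters the counts were 6, 3, 3 and 2 in the same order. These matches describe letters and show no binding.

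Every group of Rab functions was represented, and the most abundant members were mostly general trafficking Rabs, with Rab32 also among them. By mean normalized count per kilobase of exon over all 17 libraries the highest were Rab7 (1890), which drives late endosomes toward lysosomes, Rab1b (1830), which moves cargo out of the ER, and Rab2a (1600), which acts between ER and Golgi. Rab31 (1540), an endosomal Rab of the Rab5 branch, and Rab32 (1450), which serves lysosome-related organelles, came next. The order differed between groups: Rab32 was highest in knockout donor cells (2140, against 1820 for Rab7) and Rab1b in wild-type donor cells (2340, against 1940 for Rab7), while Rab32 averaged 800 in wild-type 5xFAD microglia. Together the members took 0.278 to 0.365% of the reads of a library. Of the 56 members 48 had a normalized count of at least 10 in 3 or more libraries and were tested. The 8 others were Rab25, Rab26, Rab27b, Rab33a, Rab38, Rab39b, Rab3b and Rab40b, whose highest value in any library was 29.3 (Rab38).

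**Figure D1:**
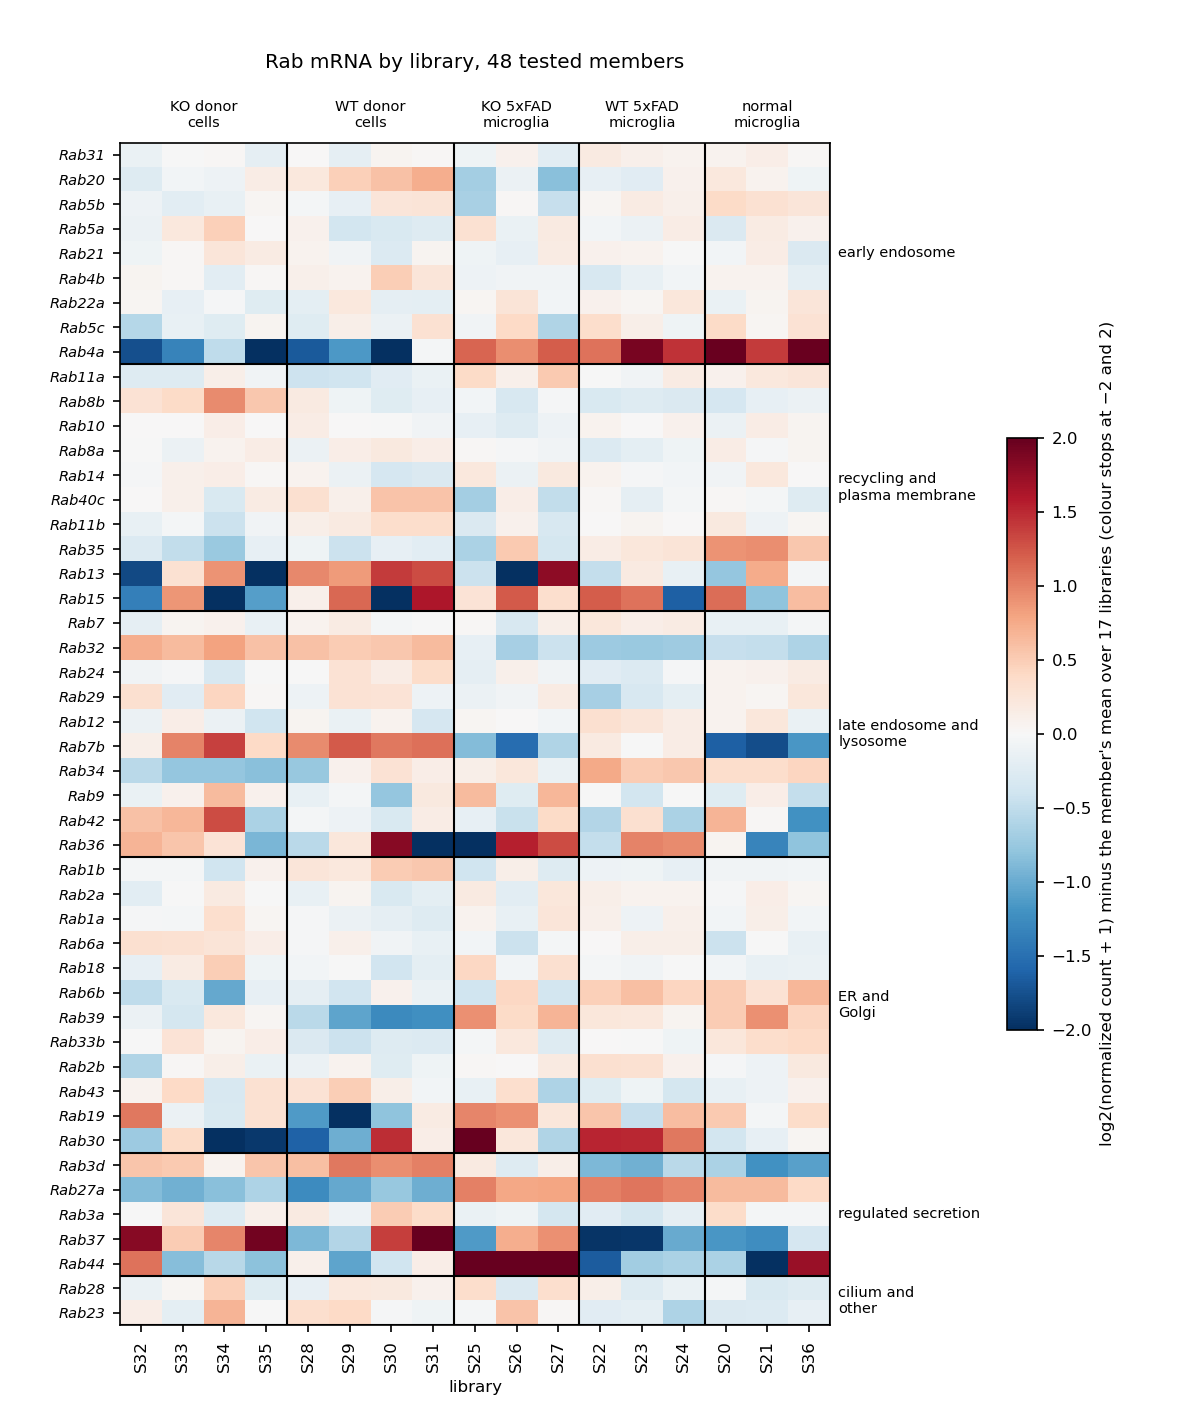
Each row is 1 of the 48 tested members, grouped by role and ordered by abundance, and each column is 1 library. Colour gives log2(normalized count + 1) minus the member's mean over the 17 libraries, so that Rab27a, Rab4a and Rab39 stand lower, and Rab32 higher, in donor cells than in 5xFAD microglia, while abundant members such as Rab7, Rab2a and Rab10 vary little.

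Changes are log2 fold changes of the normalized count with a pseudocount of 1, each with its standard error (SE) from limma. A difference was called at an adjusted p under 0.05 in limma, adjusted by Benjamini-Hochberg over all 12074 genes tested. Within groups the members varied less than genes in general: the median SD on the log2 scale was 0.227 against 0.286 for all genes in knockout donor cells, 0.193 against 0.253 in wild-type donor cells, 0.242 against 0.374 in knockout microglia, 0.109 against 0.148 in wild-type 5xFAD microglia and 0.148 against 0.192 in normal microglia. Genes matched to the members in abundance were not compared, and the part of abundance in this spread was not tested. In all, 21 of 48 members were called in at least 1 of the 7 comparisons. Single comparisons called 2.82% to 35.1% of all genes, and the share of all genes called in at least 1 was not counted.

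The widest differences lay between donor cells and the microglia of 5xFAD mice. In wild-type cells 13 of 48 members were called (27.1%, against 28.2% of all genes), with 8 higher and 5 lower in donor cells (13.6% and 14.6% of all genes). In knockout cells 11 were called (22.9%, against 25.4% of all genes), with 5 higher and 6 lower (11.7% and 13.7% of all genes). Rab27a, Rab4a, Rab39 and Rab34 were lower, and Rab32, Rab7b and Rab20 higher, in donor cells of both genotypes. The median log2 fold change was −0.098 over the members and −0.026 over all genes in wild-type cells, and −0.022 over both in knockout cells. The share of members called was close to that of all genes, and what follows describes single members.

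Among Rabs of regulated secretion, Rab27a had the smallest adjusted p of all members in both genotypes, although the fold of Rab4a was larger. Rab27a, which docks granules and lysosome-related organelles at the cell cortex, had 248, 232, 254 and 297 normalized counts in knockout donor cells against 909.8, 778 and 786 in knockout microglia. It had 189, 223, 267 and 229 in wild-type donor cells against 914, 951 and 888 in wild-type microglia. All donor libraries lay below all microglia libraries, with no overlap in either genotype. The log2 fold change of Rab27a was −1.68 (SE 0.14, adjusted p = 6.36e-08) in knockout cells and −2.02 (SE 0.14, adjusted p = 3.73e-09) in wild-type cells. It was called under every alternative of both comparisons, and its close relative Rab27b stayed at or under 12.6 normalized counts in every library.

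Rab3d, found on secretory granules, had 763, 746, 546 and 766 normalized counts in knockout donor cells against 591, 433 and 566 in knockout microglia. It had 789.5, 1083, 989.7 and 1049 in wild-type donor cells against 278, 267 and 357 in wild-type microglia. The wild-type groups stood far apart, while in knockout cells the donor library S34 (546) lay among the microglia values. In wild-type cells Rab3d was higher by 1.70 (SE 0.18, adjusted p = 1.13e-06), and in knockout cells the difference of 0.41 (adjusted p = 0.113) was not called.

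Rab37, a granule Rab of mast cells, had 13.4, 17.1, 69.7 and 106 normalized counts in wild-type donor cells against 5.9, 6.03 and 12.4 in wild-type microglia. It was called higher by 2.11 (SE 0.67, adjusted p = 0.0247), a call lost without S22, S23, S30 or S31. The high values came from S30 and S31, whose mean log2 level of T and NK cell markers was 8.07 and 7.96, against 4.33 in S28 and 6.35 in S29. The part of such cells in the Rab37 level was not tested. In knockout donor cells Rab37 had 94.6, 37.3, 52.2 and 102, with T and NK marker levels of 8.61, 7.52, 7.46 and 8.48 in the same libraries, and its difference of 1.14 from knockout microglia was not called (adjusted p = 0.238). Rab3a, the Rab of synaptic vesicles, was called in no comparison.

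**Figure D2:**
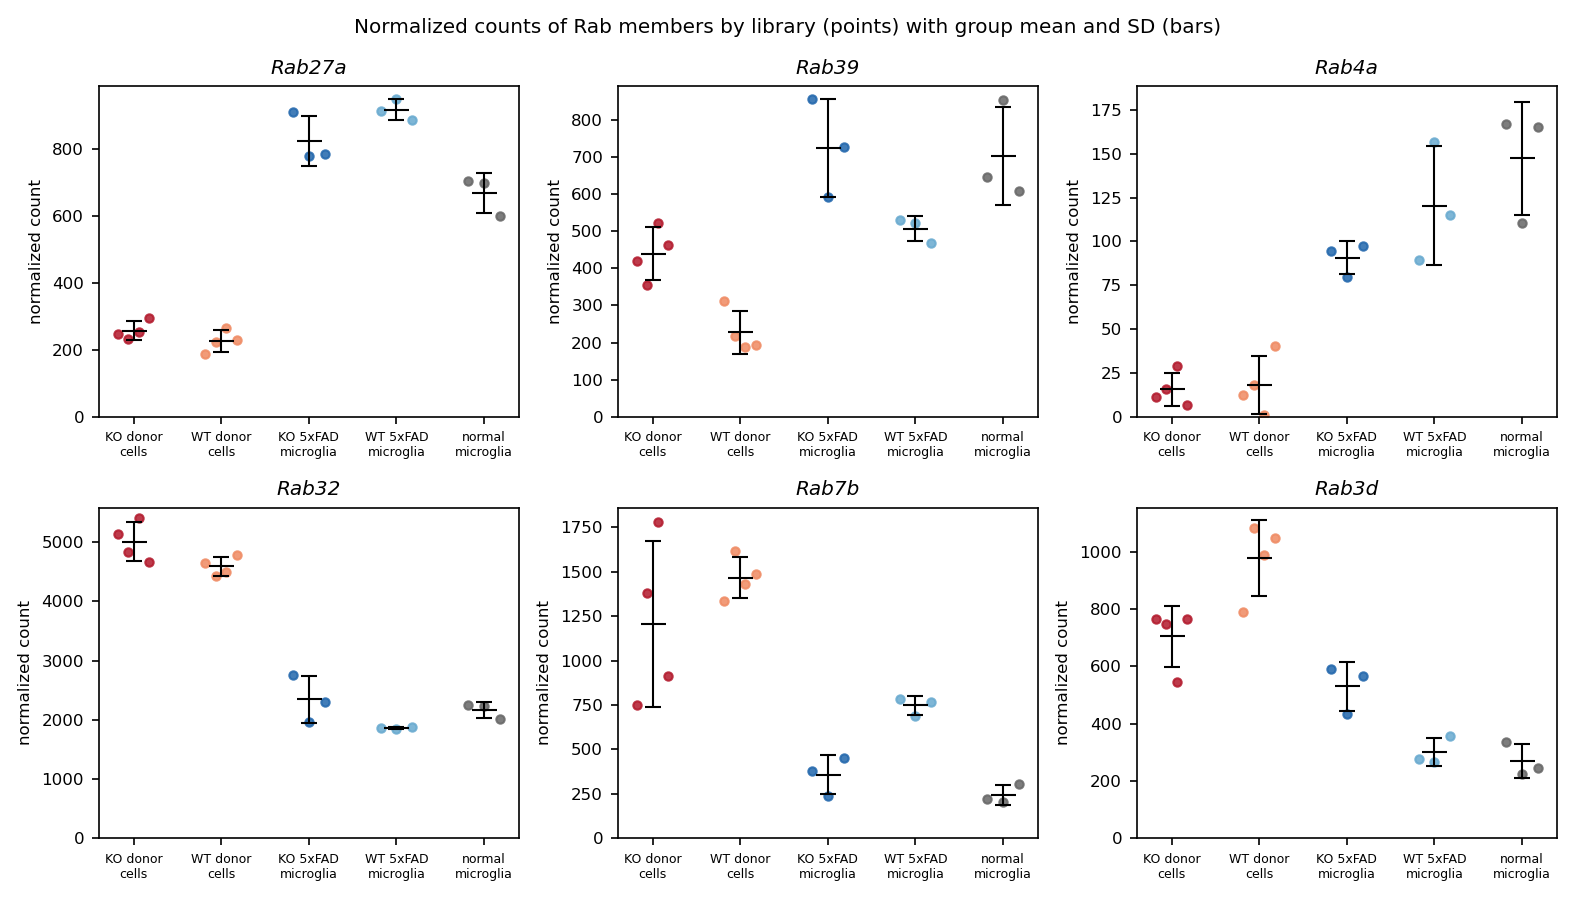
Points give the deposited normalized count of each library, and bars the group mean ± SD (n = 4 for donor cells, n = 3 for microglia), each axis starting at 0. In Rab27a the donor libraries lie between 189 and 297 and the 5xFAD microglia between 778 and 951, and in Rab32 between 4431 and 5408 and between 1854 and 2764.

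Of the partners of Rab27a, Mlph and Myo5a differed in both genotypes. Mlph (melanophilin), which in melanocytes links Rab27a to the motor myosin Va, had 63.7, 28.9, 36.2 and 49.4 normalized counts in knockout donor cells against 1751, 2734 and 1957 in knockout microglia. It had 60.4, 21.6, 47.3 and 28.1 in wild-type donor cells against 2219, 2298 and 1655 in wild-type microglia. Mlph was thus an abundant mRNA in all microglia libraries, with 2862, 2635 and 3404 in the normal ones, and scarce in all donor libraries. Its log2 fold change was −5.59 (SE 0.31, adjusted p = 2.7e-10) in knockout cells and −5.77 (SE 0.31, adjusted p = 1.09e-10) in wild-type cells, and both were called under every alternative.

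Myo5a, the gene of myosin Va, was higher in donor cells. It had 1298, 1786, 2538 and 1583 normalized counts in knockout donor cells against 467, 294 and 373 in knockout microglia, and 1593, 1304, 1247 and 1109 in wild-type donor cells against 376, 359 and 312 in wild-type microglia. Every donor library lay above every microglia library, with a log2 fold change of 2.23 (SE 0.21, adjusted p = 3.82e-07) in knockout and 1.90 (SE 0.21, adjusted p = 2.08e-06) in wild-type cells. Of the 3 components of the complex known from melanocytes, Rab27a and Mlph were thus lower and Myo5a higher at the mRNA level. Another Rab27 effector, Sytl1, was 0.10 in knockout cells (adjusted p = 0.942 in limma, not called). In wild-type cells it was 2.30, a call lost in 9 of 18 alternatives.

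**Figure D3:**
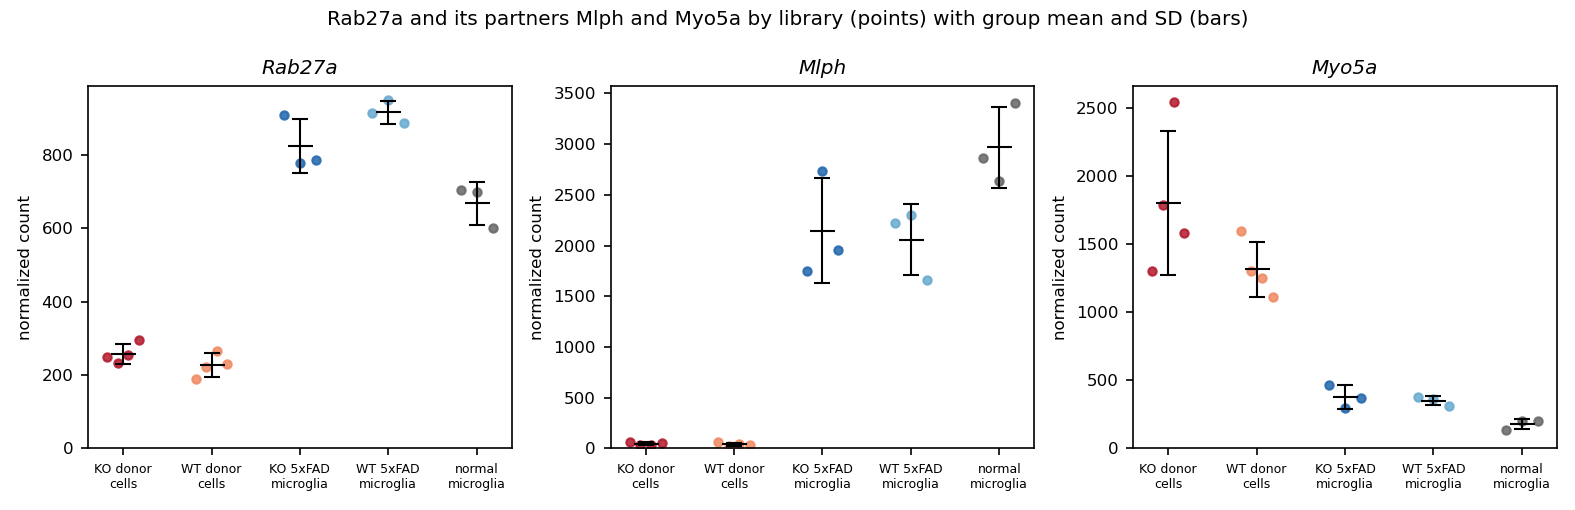
Normalized counts of Rab27a, Mlph and Myo5a by library (points) with group mean ± SD (n = 4 for donor cells, n = 3 for microglia). Mlph lies between 21.6 and 63.7 in the donor libraries and between 1655 and 3404 in the microglia libraries, while Myo5a lies between 1109 and 2538 and between 133 and 467.

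Among 10 tested late endosomal and lysosomal Rabs 2 rose and 1 fell in knockout donor cells (11.7% and 13.7% of all genes), and 4 rose and 1 fell in wild-type donor cells (13.6% and 14.6% of all genes), where Rab24 and Rab29 each lost the call on leaving out single libraries. Rab32 had 5136, 4836, 5408 and 4664 normalized counts in knockout donor cells against 2764, 1961 and 2308 in knockout microglia. It had 4650.1, 4431, 4495 and 4789.8 in wild-type donor cells against 1869, 1854 and 1888 in wild-type microglia. The groups stood apart in both genotypes, and Rab32 rose by 1.11 (SE 0.11, adjusted p = 3.72e-07) in knockout and by 1.29 (SE 0.11, adjusted p = 3.38e-08) in wild-type cells. It was called under every alternative, and its relative Rab38 made up at most 1.85% of their summed level per kilobase in any library.

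Rab7b, a relative of Rab7 that carries cargo from late endosomes to the Golgi and dampens Toll-like receptor signals in macrophages, had 751, 1378, 1781 and 913 normalized counts in knockout donor cells against 379, 239.7 and 454 in knockout microglia. It had 1334, 1614, 1431 and 1486 in wild-type donor cells against 785, 689 and 768 in wild-type microglia. The knockout donor libraries varied widely but stayed above all knockout microglia, and the wild-type groups were far apart. Rab7b rose by 1.72 (SE 0.25, adjusted p = 5.21e-05) in knockout and by 0.97 (SE 0.25, adjusted p = 0.00743) in wild-type cells. The call in wild-type cells was lost where the closest libraries were averaged.

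Rab34, which gathers lysosomes near the nucleus, had 258, 218, 218 and 210.1 normalized counts in knockout donor cells against 407, 439 and 343 in knockout microglia. It had 220.3, 396, 459 and 411 in wild-type donor cells against 635, 536 and 546 in wild-type microglia. The groups did not overlap in either genotype. Rab34 fell in both, by 0.80 on the log2 scale in knockout cells (SE 0.20, adjusted p = 0.00602) and by 0.67 in wild-type cells (SE 0.20, adjusted p = 0.0175), where the call was lost without S22. Rab24, linked to autophagy, and Rab29, a partner of the kinase Lrrk2, were called only in the wild-type comparison, at 0.37 and 0.49, with no test of a difference between genotypes passed. Each lost its call without any 1 of 4 libraries (S22, S23 and S29 for both, with S31 for Rab24 and S30 for Rab29) and with TMM scaling, with edgeR, with the closest libraries averaged and without S30 and S31. Prelid1 overlaps Rab24 over 1258 bases on the opposite strand, and whether the authors counted by strand is not given in the sources used here. Rab7, Rab9, Rab12, Rab36 and Rab42 were not called.

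Early endosomal Rabs gave 1 higher and 1 lower of 9 in each genotype. Of all genes, 11.7% were higher and 13.7% lower in knockout cells, and 13.6% and 14.6% in wild-type cells. Rab4a, which returns receptors quickly to the surface, had 11.6, 15.9, 28.8 and 6.87 normalized counts in knockout donor cells against 94.6, 79.9 and 97.6 in knockout microglia. It had 12.3, 18.2, 1.31 and 40.2 in wild-type donor cells against 89.4, 157 and 115 in wild-type microglia. No donor library reached the lowest microglia library, although the donor values were low and scattered. Rab4a fell by 2.61 on the log2 scale in knockout cells (SE 0.67, adjusted p = 0.0073) and fell by 3.24 in wild-type cells (SE 0.67, adjusted p = 0.00125). In knockout cells the call was lost without S25 and S27, which leaves S26 as the only knockout microglia library.

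Rab20, which acts on maturing phagosomes, had 1027, 1188, 1144 and 1362 normalized counts in knockout donor cells against 771, 1143 and 692 in knockout microglia. It had 1424, 1713, 1856 and 2053 in wild-type donor cells against 1103, 1057 and 1314 in wild-type microglia. The knockout groups overlapped through S26, and the wild-type groups did not overlap. Rab20 rose by 0.60 (SE 0.17, adjusted p = 0.0112) in wild-type cells, a call lost without S23 and without S30 and S31. In knockout cells it rose by 0.47 (SE 0.17, adjusted p = 0.0456), and the value was 0.04 without S25 and S27, which ended the call, as did leaving out S25, S27, S33, S34 or S35 alone. The Rab5 paralogs Rab5a, Rab5b and Rab5c, which drive fusion of early endosomes, and Rab21, Rab22a, Rab31 and Rab4b were called in neither comparison.

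Recycling and plasma membrane Rabs had no called member among 10 in wild-type cells, where 28.2% of all genes were called. They had 1 higher and 1 lower in knockout cells (11.7% and 13.7% of all genes). In knockout cells Rab8b, which carries vesicles to the cell surface, had 4598, 4954, 7241 and 5516 normalized counts in donor cells against 3651, 3044 and 3699.5 in microglia. All donor libraries lay above, S34 by the most, and Rab8b rose by 0.67 (SE 0.14, adjusted p = 0.00149) under every alternative. Rab11a, a Rab of the recycling endosome, was lower by 0.45 on the log2 scale (SE 0.12, adjusted p = 0.0122), with overlapping groups and a call lost without S27. Its value was −0.21 without S25 and S27.

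Rabs of the ER and Golgi had 1 higher and 2 lower of 12 in wild-type cells (13.6% and 14.6% of all genes). In knockout cells they had 1 of each (11.7% and 13.7% of all genes). Rab39, whose human counterpart is also found on macrophage phagosomes, had 419, 355, 522 and 463 normalized counts in knockout donor cells against 855, 592 and 726 in knockout microglia. It had 311, 218, 187 and 193 in wild-type donor cells against 529.6, 521 and 468 in wild-type microglia. The donor groups lay below the microglia groups in both genotypes. Rab39 fell by 0.72 on the log2 scale in knockout cells (SE 0.19, adjusted p = 0.0103), a call lost without S25, and by 1.18 in wild-type cells (SE 0.19, adjusted p = 0.000144), where every alternative kept it.

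Of the others, Rab1b rose by 0.49 (SE 0.13, adjusted p = 0.0103) in wild-type cells and lost its call without S30 and S31 (0.34). Rab6b, a Golgi Rab best known from neurons, was lower there by 0.66 (SE 0.21, adjusted p = 0.0239), and lost its call without S22, S23 or S29. In knockout cells its widely expressed relative Rab6a was higher by 0.43 (SE 0.12, adjusted p = 0.0157), a call lost without S26. Mrpl48 overlaps Rab6a over 708 bases on the opposite strand. Rab1a, Rab2a, Rab2b, Rab18, Rab19, Rab30, Rab33b and Rab43 were called in neither comparison, and nor were Rab23 and Rab28, known from cilia.

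**Figure D4:**
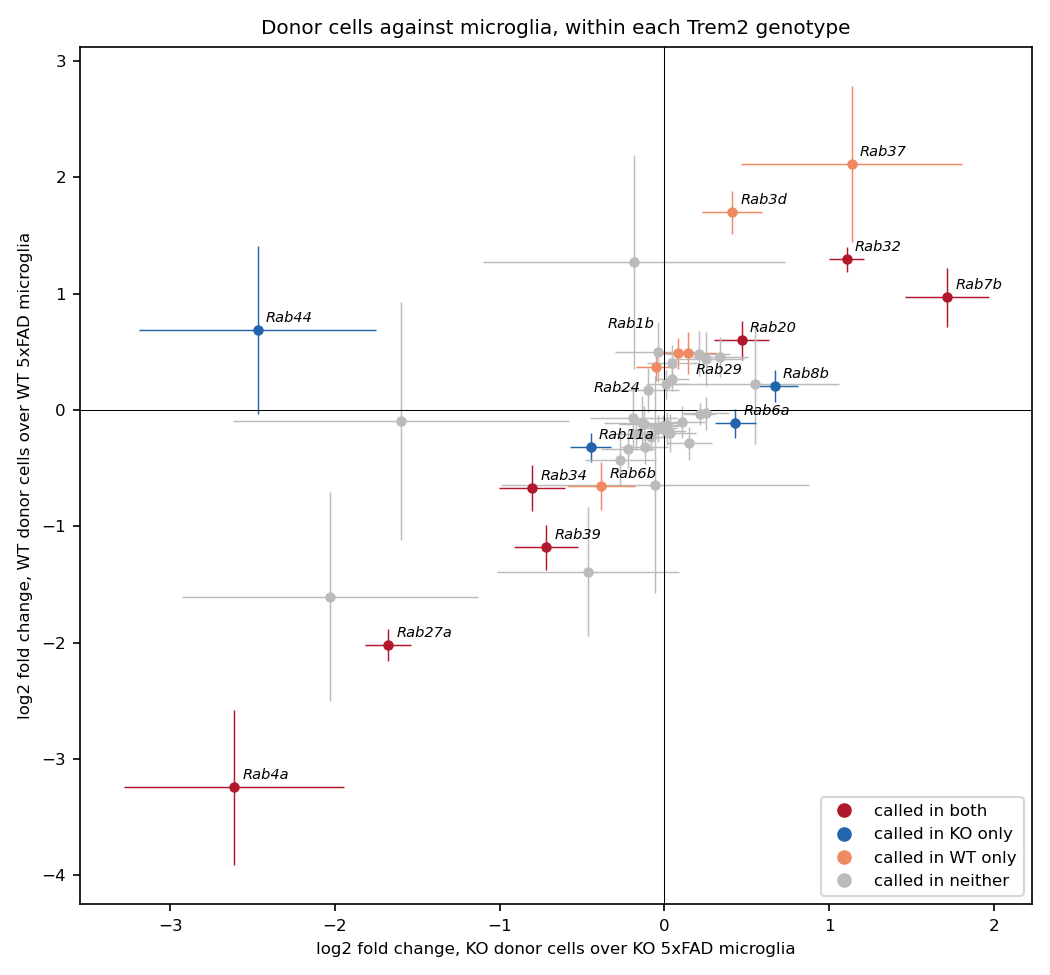
Log2 fold change of donor cells over 5xFAD microglia in knockout cells (horizontal) and wild-type cells (vertical) for the 48 tested members, with the SE of the limma model as bars and colour for the comparisons in which a member was called. The axes use different libraries, and the 7 members called in both lie in the same direction on both.

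Wild-type donor cells were also set against knockout microglia, the cells found in a Trem2 knockout 5xFAD brain without transplant. Here 14 of 48 members were called (29.2%, against 35.1% of all genes), 8 higher and 6 lower (17.3% and 17.8% of all genes), with a median of −0.027 over the members and −0.011 over all genes. Rab7b was higher by 2.08 (SE 0.25, adjusted p = 5.57e-06), Rab20 by 1.04 (SE 0.17, adjusted p = 0.000109), Rab32 by 0.98 and Rab3d by 0.88. Rab4a was lower by 2.87, Rab44 by 2.49, Rab27a by 1.86 and Rab19, a Golgi Rab, by 1.85 on the log2 scale. Rab19 had 13.4, 3.41, 17.1 and 34.1 normalized counts in wild-type donor cells against 60.7, 58 and 35.8 in knockout microglia, a call lost without S25. The groups differ here in origin, treatment and genotype at once, and use the same libraries as the comparisons above.

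The other called members of that comparison were these. Rab39 fell by 1.68 and Rab11a by 0.62 on the log2 scale, while Rab40c, a Rab tied to a ubiquitin ligase, was 0.74 higher, Rab1b 0.55, Rab11b 0.43 and Rab5b 0.43. S25 and S27 weighed on these, and without them S26 is the only knockout microglia library. There Rab11a was −0.38, Rab40c 0.26, Rab1b 0.25, Rab11b 0.17, Rab5b 0.05 and Rab4a −2.70. The calls of all of these and of Rab44 were lost. Rab5b lost its call without S25, S27, S30 or S31 and was −0.13 without S25, S27, S30, S31 and S34. Rab40c and Rab5b also overlapped between the groups.

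Between wild-type 5xFAD and normal microglia 1 member was called. Rab7b had 785, 689 and 768 normalized counts in wild-type 5xFAD microglia against 221, 202 and 308 in normal microglia. The lowest 5xFAD library had more than any normal library, and Rab7b rose by 1.64 (SE 0.27, adjusted p = 0.00111), which every alternative kept. It was 1 called member of 48 (2.08%, against 3.78% of all genes, of which 2.83% higher and 0.952% lower), with a median of −0.046 over the members and 0.004 over all genes. Another 8 members had an unadjusted p under 0.05 without being called, among them Rab35, a Rab of the recycling route, at −0.58 (adjusted p = 0.2) and Rab29 at −0.51 (adjusted p = 0.176). A model of these groups alone called 6 members: Rab7b, Rab7 and Rab27a as higher and Rab29, Rab35 and Rab39 as lower. That model also called more of all genes, 1757 against 457 in the model of all groups. The rise was thus not confined to the members.

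Trem2 knockout in 5xFAD microglia left most Rab mRNAs without a called difference, and 3 members were called (6.25% of 48, against 5.09% of all genes, of which 2.5% higher and 2.59% lower), with a median of −0.01 over the members and −0.008 over all genes. Rab7b was lower, with 379, 239.7 and 454 normalized counts in knockout microglia against 785, 689 and 768 in wild-type microglia. Rab3d was higher, with 591, 433 and 566 in knockout microglia against 278, 267 and 357 in wild-type microglia. Neither overlapped between the groups. Rab7b fell by 1.11 on the log2 scale (SE 0.27, adjusted p = 0.022) and Rab3d rose by 0.81 (SE 0.20, adjusted p = 0.0197).

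Rab44, an unusually large Rab with calcium-binding domains that is known from granules of mast cells, had 106, 75.5 and 73.7 normalized counts in knockout microglia against 4.91, 10.6 and 11.1 in wild-type microglia. Every knockout library lay above, and Rab44 rose by 3.18 (SE 0.77, adjusted p = 0.0211). Donor cells had 38.6, 9.33, 11.7 and 9.61 with knockout and 19, 7.96, 13.1 and 19.5 with wild-type donors, and normal microglia 11.1, 2.85 and 61.2. In knockout donor cells Rab44 fell by 2.47 on the log2 scale against knockout microglia (SE 0.72, adjusted p = 0.0166), a call lost without S25. The mean log2 level of neutrophil markers was 12.61, 10.95 and 12.71 in the knockout microglia against 8.18, 8.12 and 8.20 in wild-type microglia. That of monocyte markers was 9.99, 8.79 and 9.95 against 6.78, 6.91 and 6.78. The part of such cells in the levels of Rab44 and Rab3d was not tested.

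Each of these calls was lost on leaving out certain single libraries. Rab3d lost its call without S22, S23, S25 or S27, Rab44 without S22, S23, S24, S25 or S27, and Rab7b without S22, S23, S24 or S25, and none was called where close libraries were averaged. Rab7b was −1.63, Rab3d 0.54 and Rab44 3.03 without S25 and S27, a fit with S26 as the only knockout microglia library. Without S26 the count became 13. The number of all genes called rose as well, from 615 with all libraries to 3666 without S26. The rise was thus not confined to the members. The 10 further members were Rab5b at −0.65, Rab32 at 0.43, Rab6b at −0.89, Rab20 at −0.66, Rab35 at −0.71, Rab11a at 0.42, Rab40c at −0.51, Rab39 at 0.64, Rab9 at 0.78 and Rab11b at −0.34. S25 and S27 are the knockout microglia with a falling GC trend and a mitochondrial share of 0.257 and 0.246%, against 0.0708% in S26, and the part of these in the values was not tested.

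In donor cells Trem2 knockout was accompanied by 2 higher and 4 lower members, 12.5% of 48 against 6.74% of all genes (2.99% higher and 3.75% lower), with a median of −0.022 over the members and −0.046 over all genes. Rab39 rose, with 419, 355, 522 and 463 normalized counts in knockout donor cells against 311, 218, 187 and 193 in wild-type donor cells. Rab8b rose, with 4598, 4954, 7241 and 5516 in knockout donor cells against 4282, 3568, 3209.6 and 3383 in wild-type donor cells. Neither overlapped between the groups. Rab39 rose by 0.97 (SE 0.18, adjusted p = 0.00841) and Rab8b by 0.61 (SE 0.13, adjusted p = 0.0161), and Rab39 kept its call whichever single library was left out.

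The lower members were Rab1b, Rab20, Rab11b and Rab34. Rab1b had 3996, 3967, 3108 and 4320.3 normalized counts in knockout donor cells against 4817, 4708, 5821 and 5939 in wild-type donor cells. Rab20 had the values given above, with no overlap, and Rab11b, the second recycling Rab11, had 2405, 2591, 1987 and 2547 against 2891, 3001, 3403 and 3386. Rab1b and Rab11b did not overlap either, while Rab34 did through the wild-type library S28. Rab34 fell by 0.67 on the log2 scale (SE 0.18, adjusted p = 0.0412), Rab20 by 0.57 (SE 0.15, adjusted p = 0.0367), Rab1b by 0.47 (SE 0.12, adjusted p = 0.0336) and Rab11b by 0.42 (SE 0.11, adjusted p = 0.0394).

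None of these 6 calls held in every alternative. Without S30 and S31 the values were 0.74 for Rab39, 0.49 for Rab8b, −0.39 for Rab34, −0.41 for Rab20, −0.32 for Rab1b and −0.31 for Rab11b, and none was called. S30 and S31 also held the highest oligodendrocyte marker levels (mean log2 10.31 and 10.34, against 5.01 to 7.19 in all other libraries), whose part was not tested. Mean log2 levels of T and NK cell markers ran from 7.46 to 8.61 in knockout donor cells. In wild-type donor cells these levels were 4.33 in S28, 6.35 in S29, 8.07 in S30 and 7.96 in S31, and their part was not tested either. Leaving out 1 library ended the call of Rab8b for S30 and S31, of Rab1b for S30, S31, S33 and S34, of Rab20 for S29 to S34, of Rab11b for S30 to S35 and of Rab34 for all but S28 and S32. Transcripts of the higher members had a GC content of 41.2% (Rab39) and 40.6% (Rab8b), and those of the lower ones 59.5% (Rab34), 58.9% (Rab1b), 56.1% (Rab20) and 48.1% (Rab11b). With each library's GC trend removed, Rab39 (0.59, adjusted p = 0.0365) and Rab11b (−0.52, adjusted p = 0.0355) were called, while Rab8b was 0.21, Rab34 −0.35, Rab20 −0.34 and Rab1b −0.16 with no call.

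**Figure D5:**
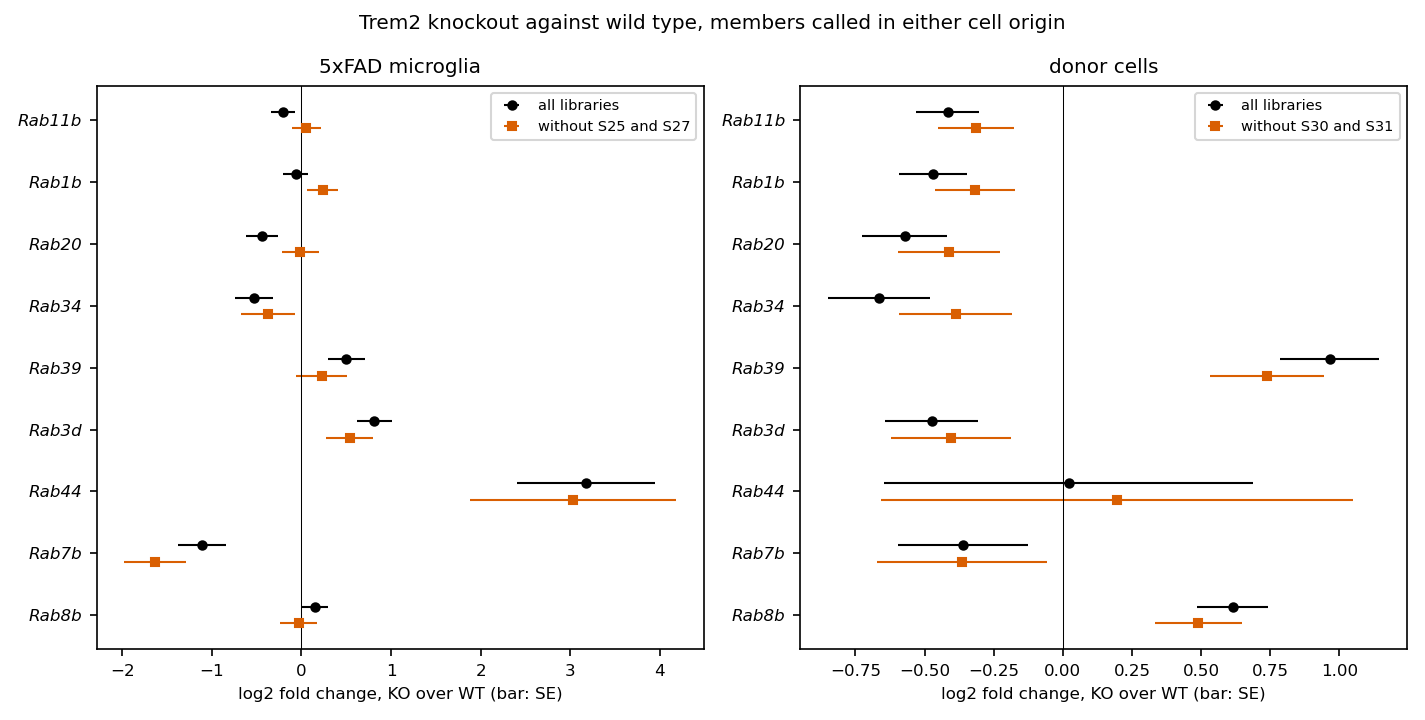
Log2 fold change of Trem2 knockout over wild type with its SE, in 5xFAD microglia (left) and donor cells (right), for the 9 members called in either; the horizontal axes differ in scale. Squares leave out the close pair named in each legend, and in donor cells all 6 called members move toward 0. Of the members called in microglia, Rab3d and Rab44 move toward 0 and Rab7b moves away from it. The squares on the left rest on S26 as the only knockout library.

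The knockout differences in donor cells and in microglia were tested against each other in the same model. Only Rab3d was called (2.08% of members, against 2.82% of all genes, of which 0.87% higher and 1.95% lower), with a median of 0.014 over the members and 0.004 over all genes. Its difference was −1.29 (SE 0.26, adjusted p = 0.00901). Rab3d was lower in knockout than in wild-type donor cells by 0.47 (adjusted p = 0.0897, not called) and higher in knockout than in wild-type microglia by 0.81. The same test asks whether donor cells differ from microglia by an unequal amount in the genotypes, so that for Rab27a (0.38), Rab32 (0.552), Rab7b (0.278) and Rab39 (0.392) the adjusted p gave no called difference between genotypes. The Rab3d call was lost without S25 and S27 (−1.01, with S26 as the only knockout microglia library) and without S30 and S31 (−1.22, adjusted p = 0.066).

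Pairs of close relatives show how the mix within a branch differed. Per kilobase of exon, Rab7b made up 12.2 ± 3.19% (SD, n = 4) of the summed level of Rab7 and Rab7b in knockout donor cells, 14 ± 0.876% (n = 4) in wild-type donor cells, 4.02 ± 0.641% in knockout microglia, 7.07 ± 0.284% in 5xFAD microglia with Trem2 and 2.92 ± 0.526% in normal microglia (n = 3 each). Rab7 itself was called in no comparison. Rab4a made up 2.94 to 13% of the Rab4 pair in knockout and 0.417 to 13.2% in wild-type donor cells, against 27.3 to 31.5% in knockout and 33.4 to 43.7% in wild-type 5xFAD microglia. Rab4b was not called in any comparison, and made up 87 to 97.1% of the pair in knockout and 86.8 to 99.6% in wild-type donor cells. Gm21983 overlaps Rab4b over 1280 bases on the same strand, and its part in the Rab4b level was not tested. Rab8b was 65.6 to 74.1% of the Rab8 pair in knockout donor cells against 53.6 to 65.9% in wild-type donor cells.

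Proteins that load, unload or read Rabs were followed as a list of 124 genes, of which 115 were tested. In knockout donor cells against knockout microglia 20 were higher and 8 lower (11.7% and 13.7% of all genes). In wild-type donor cells against wild-type microglia 20 were higher and 19 lower (13.6% and 14.6% of all genes). Besides Mlph and Myo5a, the exchange factor Dennd4a had 697, 535, 824 and 834 normalized counts in knockout donor cells against 1555, 1587 and 1415 in knockout microglia, and 526, 404, 446 and 357 in wild-type donor cells against 1366, 1232 and 1229 in wild-type microglia. The groups were well apart. Dennd4a was lower by 1.09 in knockout and by 1.57 in wild-type cells on the log2 scale, and Rab3ip (Rabin8), the exchange factor of Rab8, by 1.40 and 1.55. All 4 were called under every alternative.

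Other regulators of donor cells were called in those comparisons too. The GTPase-activating protein Tbc1d4 (AS160), which acts on Rab10, was −1.09 in knockout and −1.65 in wild-type cells, and Tbc1d12 was 1.83 and 1.27. Tbc1d10c was 2.32 in wild-type and 0.51 in knockout cells (not called). It had 153, 158, 310 and 357 normalized counts in wild-type donor cells, with T and NK marker levels of 4.33, 6.35, 8.07 and 7.96 (mean log2). In knockout donor cells it had 582, 232, 189 and 479, with marker levels of 8.61, 7.52, 7.46 and 8.48. The part of such cells in the Tbc1d10c level was not tested. Rabggta, a subunit of the enzyme that prenylates Rabs, rose by 0.72 and Lrrk2, a kinase of Rab8, Rab10 and Rab29, by 1.74 in wild-type cells. In wild-type donor cells against knockout microglia 32 regulators of 115 were higher and 14 lower (17.3% and 17.8% of all genes), among them Chm, the escort protein of prenylation, at −1.28 and Ppm1h, a phosphatase that reverses Lrrk2 marks, at 0.55.

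Between the Trem2 genotypes of microglia 5 regulators of 115 were higher and 10 lower in knockout (2.5% and 2.59% of all genes). Tbc1d8, a GTPase-activating protein of the TBC family, had 645, 825 and 627 normalized counts in knockout microglia against 1444, 1540.4 and 1410.4 in wild-type microglia. The knockout microglia lay below every other library, donor cells included, and Tbc1d8 fell by 1.08 on the log2 scale (SE 0.15, adjusted p = 0.000265) under every alternative. Tbc1d10c rose by 2.35 and Lrrk2 by 1.97, in the group with high neutrophil and monocyte marker levels. The part of such cells was not tested. Sytl1, a Rab27 effector, had 25.7, 9.85 and 65 normalized counts in knockout microglia against 0.98, 0 and 2.6 in wild-type microglia. The wild-type values lay near 0, and its log2 fold change of 3.80 ran from 1.75 to 4.75 over the alternatives. The call of Lrrk2 was lost without S23, S24 or S25 and that of Sytl1 without S27. Both were lost in a model of only these groups and where the closest libraries were averaged, and all 3 calls without S25 and S27. Zfyve1 was −0.85.

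In donor cells 4 regulators of 115 were higher and 3 lower with knockout donors (2.99% and 3.75% of all genes), among them Dennd4a at 0.73, Sbf2 at 0.51, Rabep1, a Rab5 effector, at 0.69, Mical1 at −0.79 and Tbc1d1 at −0.47. The call of Dennd4a was lost without S31, without S30 and S31, without S25, S27, S30, S31 and S34, with the GC trend removed, in a model of only these groups and where the closest libraries were averaged, with a lowest value of 0.44. Tbc1d8 was −0.12 there, and the difference from microglia of 0.95 was called (adjusted p = 0.0141), one of 4 of 115 regulators called by that test, all higher (0.87% of all genes), with Sbf2 at 0.81, Gapvd1 at 0.60 and Zfyve1 at 0.96. Tbc1d8 lost this call without S27, without S25 and S27, without S30 and S31 and where the closest libraries were averaged. In 5xFAD against normal microglia Myo5a rose by 1.00 and Rab11fip4, a Rab11 effector, by 1.45. Myo5a lost that call without S20, S22 or S23 and Rab11fip4 without S21, S22, S23 or S24, and both where the closest libraries were averaged. Rab11fip4 also lost it with no filter, with edgeR and in a model of only these groups. These were 2 called regulators of 115, against 2.83% of all genes higher and 0.952% lower.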

How the data were processed

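Bulk RNA of sorted brain myeloid cells was made into cDNA with SMART-Seq v4 and sequenced on NovaSeq, per the labels' protocols. The deposited table gives 1 signal per gene and library, a normalized count. DESeq2 (under version 3.17), RSEM, HTSeq, STAR 2.5.2b and bcl2fastq, with the builds mm10 and GRCm38.p6, are named per the submitters' processing notes. Not given in the sources used here were their settings and whether strand was counted. Whole reads were recovered from the steps between low values: within 0.02 normalized counts, 100% of values above 0 were whole multiples of the value of 1 read in every library. Recovered totals ran from 16044078 to 30606394 reads. On these reads edgeR and DESeq2 called 4180 and 4655 genes in the widest comparison reported, wild-type donor cells against knockout microglia, where limma called 4238.

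Columns were assigned to groups by name, and libraries carry the sample numbers of the columns. Values were analysed as log2(value + 1) after keeping genes at 10 or more in at least 3 libraries (12074 kept, 1427 removed). One limma model (version 3.58.1, R 4.3.3; lmFit, eBayes with trend) with 1 mean per group used all 17 libraries. The 7 two-sided contrasts were adjusted by Benjamini-Hochberg over all genes, and the model was tested on simulated counts. Those counts had the same spread in every group and held no close pairs and no GC trend. They therefore cannot show how the model handles such features of these libraries. Symbols were matched to GENCODE vM21 (56 of 56 members), which gave exon length, GC content and overlaps. Levels per kilobase divide the normalized count by merged exon length.

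The rule for the members uses the symbol alone and no measured value. That rule, the role lists, regulators, markers and tests were chosen with earlier results of these data known. The rule for named genes takes every called member, with values in every library for the 4 largest rises and the 4 largest falls per comparison, the 5 members highest per kilobase, the members below the filter, close relatives, and the 2 called regulators of each list with the smallest p. Tbc1d4 and Tbc1d10c in knockout cells, Tbc1d12 in wild-type cells and Tbc1d8 in donor cells were added beside their values in the comparison for which the rule picked them. The alternatives were 2 other pseudocounts, no filter, a mean of 100 or more, TMM factors, edgeR 4.0.16 and DESeq2 1.42.0 on recovered reads, a model of only the groups compared, the closest libraries averaged, close pairs left out, and each library left out. Removal of the GC trend and leaving out S25, S27, S30, S31 and S34 were added after seeing the data. Protein sequences were not analysed here, and some regulators that the rule picked are not reported here.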

Additional observations from a re-analysis of the deposited data

Results flagged for a closer look

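In knockout donor cells Rab3d was lowest in S34, with 546 normalized counts, a gap to the nearest of the others of 0.91 of the group's range, above Dixon's 95% critical value for 4 samples. S34 is also the library with the steepest falling GC trend (−0.65 log2 units per 10% GC), whose part was not tested. Rab44 was highest in S32 of the same group, with 38.6 normalized counts and a gap of 0.918 of the range. Chance gives such a gap in about 1 in 20 groups, and 42 combinations of a called member and a group of 4 were looked at. The difference between donor cells and microglia in the Trem2 knockout difference of Rab3d was −1.29 on the log2 scale by the interaction test.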

How the results depend on the processing

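Of 49 calls of a member in a comparison, 26 held whichever library was left out and 16 held in every alternative run. The same was not counted for the calls of all genes. Those 16 were Rab27a and Rab32 in all 3 comparisons of donor cells with 5xFAD microglia, Rab39 and Rab3d in wild-type donor cells against either microglia, Rab7b in wild-type 5xFAD against normal microglia and in both comparisons with knockout microglia, Rab34 and Rab8b in knockout cells, and Rab4a in wild-type cells. The direction reversed once: Rab5b was −0.13 in wild-type donor cells against knockout microglia without S25, S27, S30, S31 and S34. Leaving out 1 library gave 1 to 1 called members for 5xFAD against normal microglia, 0 to 13 for knockout in microglia, 1 to 9 for knockout in donor cells, 8 to 14 for donor cells in wild-type and 8 to 12 in knockout cells, 10 to 22 for wild-type donor cells against knockout microglia and 1 to 1 for the interaction. With the closest libraries averaged the counts were 0 for knockout in microglia and in donor cells and for the interaction, 6 and 7 for donor cells in wild-type and knockout cells, and 9 for wild-type donor cells against knockout microglia. Models of only the groups compared gave 6, 1 and 0 for the first 3 comparisons and 2 for the interaction. Over all genes the first 3 of these models called 1757, 278 and 67, against 457, 615 and 814 as reported. DESeq2 gave 2 for 5xFAD against normal microglia and 2 for the interaction. The 13 members for knockout in microglia were called without S26, where 3666 of all genes were called. Without S25 and S27 the counts were 1 for knockout in microglia, 8 for wild-type donor cells against knockout microglia and 0 for the interaction. Without S30 and S31 they were 0 for knockout in donor cells and 0 for the interaction, and without S25, S27, S30, S31 and S34 also 0 and 0. With the GC trend removed they were 5 and 2 for knockout in microglia and in donor cells. Leaving out libraries also leaves fewer samples, with S26 the only knockout microglia library without S25 and S27, and further causes were not tested. TMM scaling moved the median of all genes by less than 0.1 in every comparison. No paired analysis was possible because columns outside the normal group carry no replicate number. Members near the filter, such as Rab4a in donor cells, rest on few reads, and mRNA says nothing of Rab protein or of how much is bound to GTP.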
